A study of Mus musculus with 8 samples.

Results

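The genes described here are 40 genes of the mouse cell cycle, read on 8 one-colour microarrays from a study of stroke and of regulatory T cells (Treg cells) in the brain. They are 13 genes of the G1 phase and of entry into S phase (G1/S), 10 genes of DNA replication (S) and 17 genes of the G2 phase and mitosis (G2/M). They were found by symbol: a probe was taken when its RefSeq accession mapped to 1 of the 40 symbols. All 40 had at least 1 probe, among 22911 genes with a named probe on the array, and the assignment to phase and role follows textbook knowledge.

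The study hybridised 8 RNA samples, 1 per group, to arrays with probes for the whole mouse transcriptome (Agilent SurePrint G3 Mouse). In the T cell set, CD4+ T cells labelled Treg and non Treg came from the ischemic brain of WT mice at day 14 after the onset of stroke, and cells with the same labels came from the spleen of untreated, intact mice. In the tissue set, whole brain tissue (slice 3, on the ischemic side) came from WT and DEREG mice at day 14 after ischemia or sham surgery. DEREG mice are a transgenic strain in which the diphtheria toxin receptor is expressed under the control of the Foxp3 gene, so that Treg cells can be removed with toxin. The labels do not say whether toxin was given, how Treg and non Treg cells were separated, or the age, the sex and the number of mice behind a sample. The brain T cells and the spleen T cells differ in organ and in whether the mouse had a stroke, and these effects cannot be told apart. With 1 array per group, no comparison has a replicate check, no test between groups was run and no p-value is given.

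A cell that is to divide passes the G1/S boundary when D-type cyclins with Cdk4 or Cdk6, and then cyclin E with Cdk2, release E2F transcription factors from the retinoblastoma protein. E2F targets such as the MCM helicase, the sliding clamp Pcna and the enzymes of deoxynucleotide synthesis are then made for S phase. A later wave of genes, turned on through the MuvB complex with B-Myb and Foxm1, supplies cyclin B with Cdk1, the mitotic kinases and the spindle proteins. CDK inhibitors (Cdkn1a, Cdkn1b, Cdkn2a, Cdkn2c) hold the kinases back. Naive T cells rest outside the cycle and enter it after activation. Most neurons of the adult brain do not divide, while microglia, infiltrating immune cells, astrocytes and stromal cells can divide after injury.

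Because S and G2/M genes are known to be read through shared promoter elements, the 250 bases upstream of the transcription start of 4 members are shown, from the RefSeq promoter table of assembly GRCm38.p6. They were chosen on the probe that stood for each gene. Cdk1 and Ccnb1 are the G2/M members with the highest lower bound and the highest measured difference between brain and spleen Treg cells. Rrm2 is the S member with the highest difference, and Cdkn1b is the member with the smallest difference. All 4 are written 5′ to 3′ on the strand of the gene, ending at the base before the start. Capitals mark the words searched for in either orientation: TTTGAA (the core of the cell cycle homology element bound by MuvB), CCAAT (the NF-Y box) and 4 E2F words (TTTCCCGC, TTTGGCGC, TTTCGCGC and TTTGCCGC).
Cdk1 promoter, chr10:69352913-69353162, minus strand: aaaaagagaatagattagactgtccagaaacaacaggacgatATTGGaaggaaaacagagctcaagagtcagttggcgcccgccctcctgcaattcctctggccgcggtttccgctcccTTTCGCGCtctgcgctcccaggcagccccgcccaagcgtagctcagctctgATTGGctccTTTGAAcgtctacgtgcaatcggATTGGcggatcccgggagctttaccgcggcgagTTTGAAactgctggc
Ccnb1 promoter, chr13:100786487-100786736, minus strand: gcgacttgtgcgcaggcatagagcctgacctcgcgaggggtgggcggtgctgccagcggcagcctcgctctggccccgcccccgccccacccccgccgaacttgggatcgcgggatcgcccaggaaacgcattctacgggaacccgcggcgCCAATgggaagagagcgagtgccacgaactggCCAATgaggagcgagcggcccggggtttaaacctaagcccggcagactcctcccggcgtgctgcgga
Rrm2 promoter, chr12:24708004-24708253, plus strand: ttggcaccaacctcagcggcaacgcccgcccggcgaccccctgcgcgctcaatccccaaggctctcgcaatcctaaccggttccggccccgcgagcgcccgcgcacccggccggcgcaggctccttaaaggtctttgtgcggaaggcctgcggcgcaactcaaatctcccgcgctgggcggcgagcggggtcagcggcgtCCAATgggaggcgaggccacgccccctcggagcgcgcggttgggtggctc
Cdkn1b promoter, chr6:134920151-134920400, plus strand: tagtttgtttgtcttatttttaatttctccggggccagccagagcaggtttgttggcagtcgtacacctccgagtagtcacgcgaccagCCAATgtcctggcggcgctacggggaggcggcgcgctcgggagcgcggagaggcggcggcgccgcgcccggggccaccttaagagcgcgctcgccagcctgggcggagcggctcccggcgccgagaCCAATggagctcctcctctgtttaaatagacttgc
The Cdk1 promoter held 2 copies of TTTGAA, 3 of the CCAAT word (as ATTGG on this strand) and 1 E2F word. Ccnb1 held 2 CCAAT words, Rrm2 held 1 and Cdkn1b held 2 in the stretch shown, and no TTTGAA was in these 3 stretches. A match is a description of the letters and not evidence of binding.

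Of the 40 members, 31 had an entry in the promoter table, with 36 promoters in all. In windows of 250 bases before to 50 bases after the start, searched on both strands, TTTGAA was in 9 of 12 G2/M promoters (75%), in 1 of 10 S promoters and in 0 of 14 G1/S promoters, against 17.9% of all 32851 promoters in the table. The 9 were those of Mki67, Top2a, Cdk1, Ccnb2, Bub1b, Plk1, Aurka, Kif11 and Cdc20. CCAAT was in 11 of 12 G2/M promoters and 9 of 10 S promoters, against 5 of 14 G1/S promoters and 37.4% of all promoters. An E2F word was in 4 of 10 S promoters (Mcm3, Mcm5, Mcm6 and 1 of the Mcm7 promoters), 1 of 12 G2/M promoters and 2 of 14 G1/S promoters, against 2.26% of all promoters. In the 36 promoters, 1 pair of matches to different kinds of word shared bases. Ccnd1, Ccnd2, Ccne2, Ccna2, Mcm4, Aurkb, Tpx2, Kif20a and Foxm1 were not matched to the table.

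**Figure D1:**
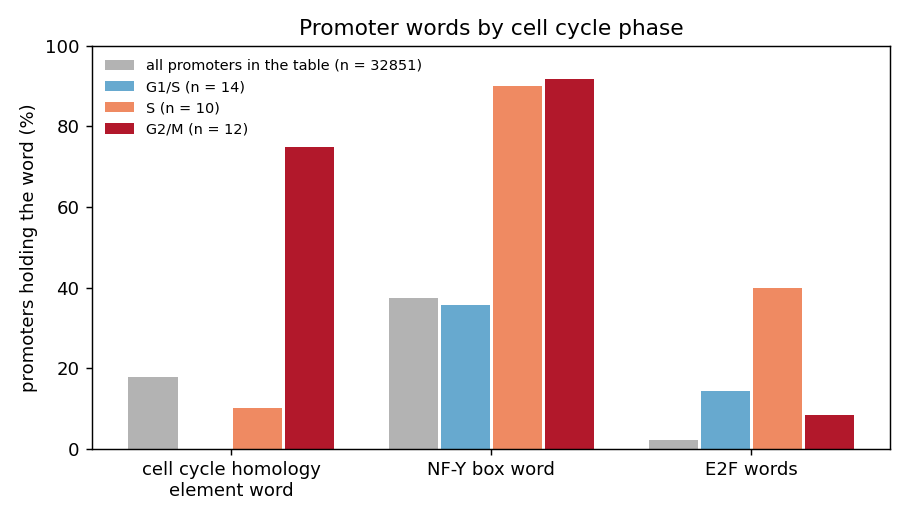
Share of promoters (y axis, %) that hold each searched word (x axis) for all 32851 promoters in the RefSeq table and for the promoters of G1/S, S and G2/M members, with the number of promoters in the key. The cell cycle homology element word is in 75% of the G2/M promoters and in none of the 14 G1/S promoters, and the NF-Y box word is frequent in both the S and the G2/M promoters.

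Each T cell array detected 47.6% to 51.9% of the 56605 probes well above background, and each tissue array 62.0% to 65.1%. Values are given as scaled intensity, the brightness of the gene's probe in arbitrary units after the arrays of a set were brought to the same 75th percentile. The ratio between arrays is a fold change, while levels of different genes are not comparable. A value described as not above background is only an upper limit, and a fold against it is a lower bound. The bound is taken against the dimmest probe still detected on that array, or against the gene's own reading where that is higher. All 8 T cell markers, Cd3e and Cd4 among them, were above background on all 4 T cell arrays. Foxp3, the transcription factor that defines Treg cells, read 3843 in brain Treg, 7782 in spleen Treg and 726 in brain nonTreg cells, and was not above background in spleen nonTreg cells (12.2). The sample labelled brain nonTreg thus carried Foxp3 signal. On the tissue arrays, Foxp3 was not above background in any group.

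T cells from the ischemic brain had far higher levels of mitotic and replication genes than T cells from the intact spleen, in both the Treg and the nonTreg samples. Between brain Treg and spleen Treg cells, 32 of the 40 members were 2-fold or more higher in the brain and 0 were 2-fold lower, where 17.2% of 13779 compared genes were 2-fold higher and 11.7% were 2-fold lower. Between brain nonTreg and spleen nonTreg cells, 29 of 39 compared members were at least 2-fold higher and 0 were lower, against 17.8% and 12.1% of 13404 genes. The step was largest in G2/M, where 17 of 17 members were 2-fold higher in both comparisons. It was smaller in S (8 of 10 for Treg, 6 of 10 for nonTreg cells) and was limited to part of the G1/S members (7 of 13 for Treg, 6 of 12 for nonTreg cells). Among the members measured on both arrays, 29 of 31 were above 0 for Treg cells (47.7% of all genes) and 28 of 30 for nonTreg cells (46.2%). On the probe used, Ccnd2 was below 0 in both. The median log2 difference between brain and spleen Treg cells was 4.03 for G2/M, 1.66 for S and 1.11 for G1/S members, and the median over all compared genes was 0.03. For nonTreg cells the medians were 3.21, 1.16 and 1.11, and 0.01 over all genes. The brain Treg array had the highest value of the 4 for 35 of the 40 members, among them all 10 S and all 17 G2/M members. How often that array was highest over all genes was not counted. In these bulk samples, a difference in the number of cells of a type and a difference in RNA per cell cannot be told apart.

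**Figure D2:**
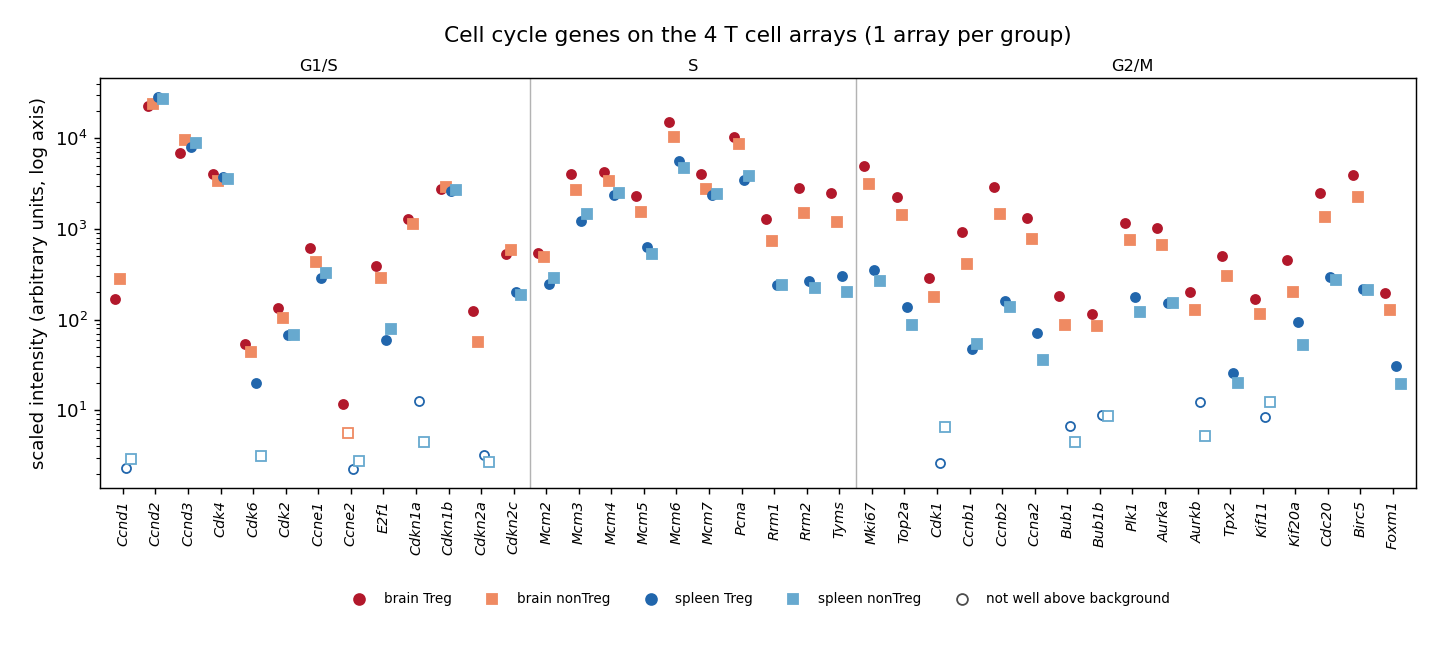
Scaled intensity (y axis, arbitrary units, log axis) of the 40 members (x axis, grouped by phase) on the 4 T cell arrays, 1 point per array, with open symbols for values not well above background. For each G2/M member the brain points (red and orange) lie above the spleen points (shades of blue), while Ccnd2, Ccnd3, Cdk4 and Cdkn1b lie close together on all 4 arrays.

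Mki67, which encodes the proliferation antigen Ki-67 that coats mitotic chromosomes, read 3146 in brain nonTreg, 4987 in brain Treg, 266 in spleen nonTreg and 351 in spleen Treg cells. Both brain arrays were high and both spleen arrays low, with a brain to spleen ratio of 14.2-fold for Treg and 11.8-fold for nonTreg cells. Top2a, the topoisomerase that untangles sister chromosomes, read 1415, 2228, 87.8 and 139 in the same order. Its brain to spleen ratio on the probe used was 16.1-fold in Treg and 16.1-fold in nonTreg cells, the same to 3 digits. A second Top2a probe had log2 differences of 4.48 and 4.68, against 4.01 and 4.01.

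Cdk1, the kinase that drives entry into mitosis, read 176 in brain nonTreg and 289 in brain Treg cells and was not above background on either spleen array (6.48 and 2.63). It was therefore at least 29.3-fold higher in brain Treg than in spleen Treg cells, and at least 14.2-fold higher in brain nonTreg than in spleen nonTreg cells. Ccnb1, the B-type cyclin that activates Cdk1, read 406 in brain nonTreg, 937 in brain Treg, 53.3 in spleen nonTreg and 47.5 in spleen Treg cells. Its brain to spleen ratio was 19.7-fold in Treg and 7.63-fold in nonTreg cells. On the probes used, this was the highest ratio measured for a member in the Treg comparison. A second Ccnb1 probe had a smaller log2 difference in Treg cells, 2.12 against 4.30. The other mitotic cyclins stood out in the same way: Ccnb2 was 18.3-fold and Ccna2, the cyclin of S phase and G2, 18.5-fold higher in brain than in spleen Treg cells. Ccna2 read 772 in brain nonTreg, 1306 in brain Treg, 36.0 in spleen nonTreg and 70.5 in spleen Treg cells. The low value in spleen nonTreg cells gave it the largest measured ratio of the nonTreg comparison on the probes used, 21.4-fold.

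The spindle checkpoint genes Bub1 and Bub1b, which delay anaphase until chromosomes are attached, were above background on both brain arrays and on neither spleen array. Bub1 read 88.1 in brain nonTreg and 182 in brain Treg cells, and its ratio was at least 7.13-fold in nonTreg and at least 18.5-fold in Treg cells. Bub1b read 85.4 and 115, and its ratio was at least 6.91-fold and at least 11.7-fold. Cdc20, the activator of the anaphase-promoting complex, was detected on all 4 arrays, at 1356 and 2495 in brain nonTreg and Treg cells and at 275 and 296 in their spleen counterparts. It was 8.43-fold higher in brain Treg than in spleen Treg cells and 4.94-fold higher in brain nonTreg than in spleen nonTreg cells.

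Aurkb and Birc5 (survivin) encode partners in the chromosomal passenger complex, which corrects faulty attachments. Aurkb read 128 in brain nonTreg and 202 in brain Treg cells and was not above background in spleen, a ratio of at least 10.4-fold and at least 16.3-fold. Birc5 read 2238 and 3965 in the brain samples against 209.9 and 219 in spleen, log2 differences of 3.41 and 4.18. Both members of the complex were thus high on both brain arrays and low or undetected in spleen. Tpx2, which activates Aurora A on spindle microtubules, was 19.5-fold higher in brain Treg cells, rising from 25.6 in spleen to 498. Aurka itself was 6.69-fold and Plk1, the Polo-like kinase, 6.52-fold higher. Their spleen signals, 154 and 178 in Treg cells, were well detected.

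Of the 2 mitotic kinesins, Kif11, which pushes the spindle poles apart, read 115 in brain nonTreg and 171 in brain Treg cells and was not above background in spleen, with ratios of at least 9.26-fold and at least 17.3-fold. Kif20a, a kinesin of cytokinesis, read 202 in brain nonTreg, 453 in brain Treg, 52.9 in spleen nonTreg and 93.1 in spleen Treg cells. It had the smallest G2/M ratio in both comparisons, 4.87-fold for Treg and 3.81-fold for nonTreg cells. Foxm1, the transcription factor that drives many G2/M genes, was 6.4-fold higher in brain Treg and 6.45-fold higher in brain nonTreg cells, with values of 196 and 126 against 30.7 and 19.6.

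Among the S-phase members, the enzymes of nucleotide supply differed most. Rrm2, the regulated subunit of ribonucleotide reductase, read 1518 in brain nonTreg, 2829.6 in brain Treg, 225 in spleen nonTreg and 264 in spleen Treg cells. Its log2 difference was 3.42 in Treg and 2.76 in nonTreg cells. Tyms, thymidylate synthase, read 1184, 2514, 203 and 302 in the same order, ratios of 8.34-fold for Treg and 5.83-fold for nonTreg cells. Rrm1, the larger subunit of the reductase, was 5.37-fold and 3.04-fold higher. All 3 genes were high on both brain arrays and low on both spleen arrays.

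The 6 subunits of the MCM helicase, which unwinds DNA at the fork, were well detected on every T cell array. Mcm5 had the largest brain to spleen ratio, 3.68-fold in Treg and 2.89-fold in nonTreg cells, from 634 and 527 in spleen to 2332 and 1522 in brain. Mcm7 had the smallest, 1.71-fold and 1.11-fold, from 2384 and 2454 to 4076 and 2732. The Treg ratio was 3.34-fold for Mcm3, 2.72-fold for Mcm6, 2.18-fold for Mcm2 and 1.82-fold for Mcm4. Subunits of 1 complex thus lay on either side of the 2-fold limit. Further probes of Mcm3 and Mcm6 had larger log2 differences between brain and spleen Treg cells, 2.50 and 2.70. A second Mcm7 probe was at 0.52 for Treg and -0.58 for nonTreg cells, against 0.77 and 0.15 for the probe used. Pcna, the clamp that tethers DNA polymerase, read 8697 in brain nonTreg, 10453 in brain Treg, 3823 in spleen nonTreg and 3479 in spleen Treg cells, and was 3-fold and 2.27-fold higher in brain.

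The G1/S members split by role. The D-type cyclins, which carry growth signals to Cdk4 and Cdk6, did not move together. Ccnd1 read 280.4 in brain nonTreg and 170.2 in brain Treg cells and was not above background in either spleen sample, so it was at least 22.7-fold and at least 17.3-fold higher in brain. Ccnd2 read 23711 in brain nonTreg, 22693 in brain Treg, 27168 in spleen nonTreg and 28849.6 in spleen Treg cells, log2 differences of -0.35 for Treg and -0.20 for nonTreg cells. Another Ccnd2 probe was lower in the brain, by log2 differences of -1.25 and -1.11. A further Ccnd2 probe was at -0.11 for Treg and 0.36 for nonTreg cells, so the direction in nonTreg cells differed between probes. Ccnd3 and Cdk4 differed by at most 1.16-fold between brain and spleen on the probes used, and another Cdk4 probe was higher in the brain by 0.59 in Treg and 0.53 in nonTreg cells (log2). Cdk6, at 44.1 and 53.3 in brain, was 2.69-fold higher in Treg cells and at least 3.57-fold higher in nonTreg cells. Ccnd1 and Cdk6 were thus low in spleen and higher in brain, while the other D-type cyclins and Cdk4 were bright on all 4 arrays.

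E2f1, the activator of S-phase genes, read 288 in brain nonTreg, 392 in brain Treg, 79.0 in spleen nonTreg and 59.4 in spleen Treg cells, ratios of 6.6-fold for Treg and 3.64-fold for nonTreg cells. Ccne1, the cyclin E that starts replication with Cdk2, was 2.15-fold higher in brain Treg cells and 1.3-fold higher in brain nonTreg cells. Cdk2, at 135 in brain Treg against 68.2 in spleen Treg cells, was just under the limit at 1.97-fold. Ccne2, the second cyclin E, was above background on the brain Treg array alone, at 11.8.

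Of the 4 inhibitors of the kinases, 3 were also higher in brain T cells. Cdkn1a (p21), a target of p53, had the largest bound of all 40 members: it read 1132 in brain nonTreg and 1303 in brain Treg cells and was not above background in spleen, at least 91.6-fold and at least 104-fold higher. Cdkn2a, the locus of p16 and p19Arf, read 56.7 and 124 in brain and was not above background in spleen, at least 4.59-fold and at least 12.6-fold higher. Cdkn2c (p18), an inhibitor of Cdk4 and Cdk6, read 587 and 532 in brain against 189 and 203 in spleen. The fourth inhibitor, Cdkn1b (p27), which holds resting T cells out of the cycle, read 2898 in brain nonTreg, 2754 in brain Treg, 2669 in spleen nonTreg and 2638 in spleen Treg cells. It differed by 1.04-fold for Treg and 1.09-fold for nonTreg cells, the smallest difference of a member in the Treg comparison.

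In a wider list of 110 other cell cycle genes, 46 of 50 compared G2/M, 27 of 38 S and 7 of 19 G1/S genes passed 2-fold upward in brain Treg against spleen Treg cells, and 0 were lower. Over all genes, 17.2% were 2-fold higher and 11.7% lower. For nonTreg cells the counts were 45 of 50, 19 of 38 and 7 of 19, with 0 lower, beside 17.8% and 12.1% of all genes. Ube2c, the ubiquitin-conjugating enzyme of the anaphase-promoting complex, had the highest value of this list in Treg cells, 1522 in brain against 59.6 in spleen (25.5-fold). The kinetochore gene Nuf2 was 21.7-fold and the spindle gene Nusap1 18.5-fold higher. The phases thus kept the order seen in the 40 members.

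More markers of other cells were detected on the brain arrays than on the spleen arrays. All 8 macrophage and monocyte markers were above background on both brain arrays and 2 of 8 on each spleen array, with a summed scaled intensity of 57107 in brain nonTreg, 34717 in brain Treg, 19493 in spleen nonTreg and 14598 in spleen Treg cells. Ly6c2, which activated T cells can also express, made up most of each sum (54217, 28989, 19344 and 14424), and the other 7 markers summed to 2889.8, 5727, 149 and 174. All 8 microglia markers were above background on both brain arrays, 5 of 8 in spleen nonTreg and 4 of 8 in spleen Treg cells, with sums of 26009.8, 45946, 25204 and 25484. Siglech was the brightest of the 8 on average over the arrays and was higher in spleen (23810.1 and 24164) than in brain (12180.0 and 11412). On the brain Treg array Csf1r was brighter (18669). Without Siglech the sums were 13829.8, 34535, 1393 and 1319. The microglial gene Tmem119 read 1518 in brain Treg and 479.6 in brain nonTreg cells and was not above background in spleen. The 8 CD8 T and NK cell markers summed to 8337 in brain nonTreg against 2749 in spleen nonTreg cells and to 3514 in brain Treg against 1357 in spleen Treg cells. Cd8a was above background in the brain samples alone (263 and 83.4). This list went both ways: of 6 markers measured on both Treg arrays, 3 were higher and 3 lower in brain. Gzma read 2410 in brain nonTreg against 104 in spleen nonTreg cells. Prf1 was lower in brain, at 193 against 337 in nonTreg and 99.9 against 131 in Treg cells. Of 6 plasma cell markers, 5 were above background in brain nonTreg, 6 in brain Treg and 2 in each spleen sample, with sums of 7760.1, 7456, 1803 and 2809. The 6 endothelial markers were all above background in brain and 1 of 6 in spleen. Of the 6 astrocyte markers, 3 were above background on each brain array and 1 on each spleen array. Slc1a3 read 15.2 in brain nonTreg and 58.2 in brain Treg cells and was not above background in spleen. Aldh1l1 was lower in brain (26.6 and 48.4) than in spleen (132 and 106). Gfap and Gja1 were not above background on any T cell array, and of the 6 neuron markers 5 were not. The part of these other cells in the cell cycle signal was not tested. When the background was corrected with the normexp method, which shrinks dim signals, the counts were 29 for Treg and 23 for nonTreg cells. Over all genes, 1253 of 13185 and 1228 of 12817 were then 2-fold higher. The G2/M medians were 2.39 and 1.74. Cdk6, Ccne1 and Mcm2 then fell below 2-fold in Treg cells, and Cdk6, Cdkn2a, Bub1, Bub1b, Kif11 and Kif20a in nonTreg cells.

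**Figure D3:**
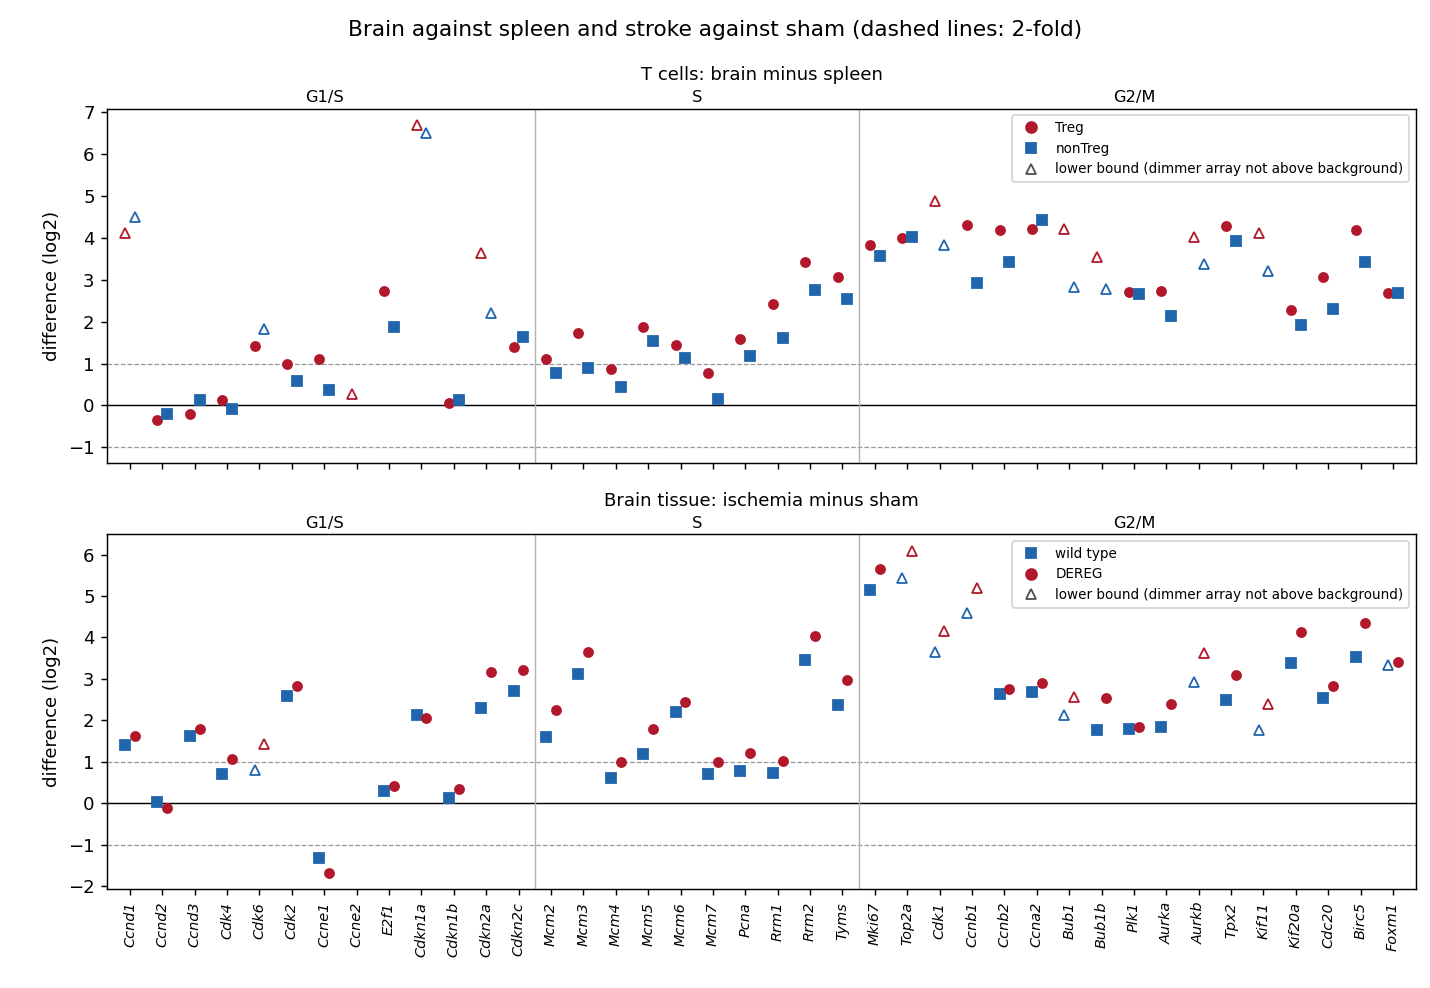
Log2 difference (y axis) of each member (x axis, grouped by phase) between brain and spleen in T cells (upper panel) and between ischemia and sham surgery in brain tissue (lower panel), 1 array against 1 array, with open triangles for lower bounds and dashed lines at 2-fold. All 17 G2/M members lie above the upper dashed line in all 4 comparisons, and Ccne1 lies below the lower line in tissue.

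Within the ischemic brain, Treg cells had slightly higher levels of S and G2/M genes than nonTreg cells, mostly by less than 2-fold. Of the 40 members, 5 passed 2-fold upward in brain Treg cells and 0 were 2-fold lower, against 4.63% and 2.86% of 13756 genes. The 5 were Ccnb1 (2.31-fold), Kif20a (2.24-fold), Cdkn2a (2.18-fold), Tyms (2.12-fold) and Bub1 (2.06-fold). All 17 G2/M members and all 10 S members were above 0, with median log2 differences of 0.71 and 0.58, and 34 of the 39 members measured on both arrays were above 0, against 50.8% of genes. The G2/M differences ran from 0.43 for Bub1b to 1.21 for Ccnb1, and the S differences from 0.12 for Mcm2 to 1.09 for Tyms. The median over all genes was 0.01. The 5 members below 0 were all of G1/S: Ccnd1 (-0.72), Ccnd3 (-0.48), Cdkn2c (-0.14), Cdkn1b (-0.07) and Ccnd2 (-0.06). With normexp correction, 2 members stayed at 2-fold, beside 174 of 13637 genes that were 2-fold higher, and Cdkn2a, Bub1 and Kif20a did not. With the median over probes Ccnb1 was at 0.92, and its other probes were at 0.93 and 0.89, below 2-fold. Between these 2 arrays, 7 of 8 microglia markers (all but Siglech) and 7 of 8 macrophage and monocyte markers (all but Ly6c2) were higher in brain Treg cells, such as Csf1r (18669 against 7709) and Adgre1 (789.6 against 281). The 8 CD8 T and NK cell markers were all lower there. The part of these cells in the differences was not tested.

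Among other cell cycle genes, 3 of 50 G2/M, 4 of 38 S and 1 of 19 G1/S genes were 2-fold higher in brain Treg than in brain nonTreg cells, and 0 were lower, beside the 4.63% and 2.86% of all genes given above. Orc1, the largest subunit of the origin recognition complex, led with 80.7 against 26.8 (3.01-fold). Gins1, a part of the replicative helicase, was 2.49-fold and Mybl2, the B-Myb factor of the G2/M programme, 2.16-fold higher.

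In the spleen, Treg and nonTreg cells differed less. Of 31 compared members, 0 were 2-fold higher or lower in spleen Treg cells, where 5.38% of 12546 genes were 2-fold higher and 3.24% lower. The other 9 members were above background on neither spleen array. G2/M had a median of 0.37, with 11 of 12 measured members above 0, and in all 18 of 30 measured members were above 0, against 46.5% of genes. S and G1/S had medians of -0.04 and -0.00. Ccna2 came closest to the limit, with 70.5 in Treg and 36.0 in nonTreg cells (1.95-fold), followed by Kif20a (1.76-fold). Of 93 other cell cycle genes, 7 were 2-fold higher, led by Tk1, thymidine kinase (310.0 against 63.4, 4.89-fold), and 1 was lower, the cytokinesis kinesin Kif23 (at least 4.44-fold).

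The brain to spleen difference was compared between Treg and nonTreg cells over the 30 members above background on all 4 arrays. It was larger in Treg cells for 23 of the 30, where 52% of 11301 genes were above 0, and the medians were 0.47 for S, 0.36 for G2/M and 0.08 for G1/S members. All 10 S members were above 0. Ccnb1 was the 1 member past 2-fold, at 1.37, against 2.3% of genes higher and 3.79% lower. With the median over its probes in place of the brightest probe, the Ccnb1 value was -2.47. Its other probes were not above background in spleen nonTreg cells, so none of them measured this difference. The -2.47 rests in part on dim readings and is not a measured difference in the other direction. These differences rest on 1 array per group and share arrays with the comparisons above.

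**Figure D4:**
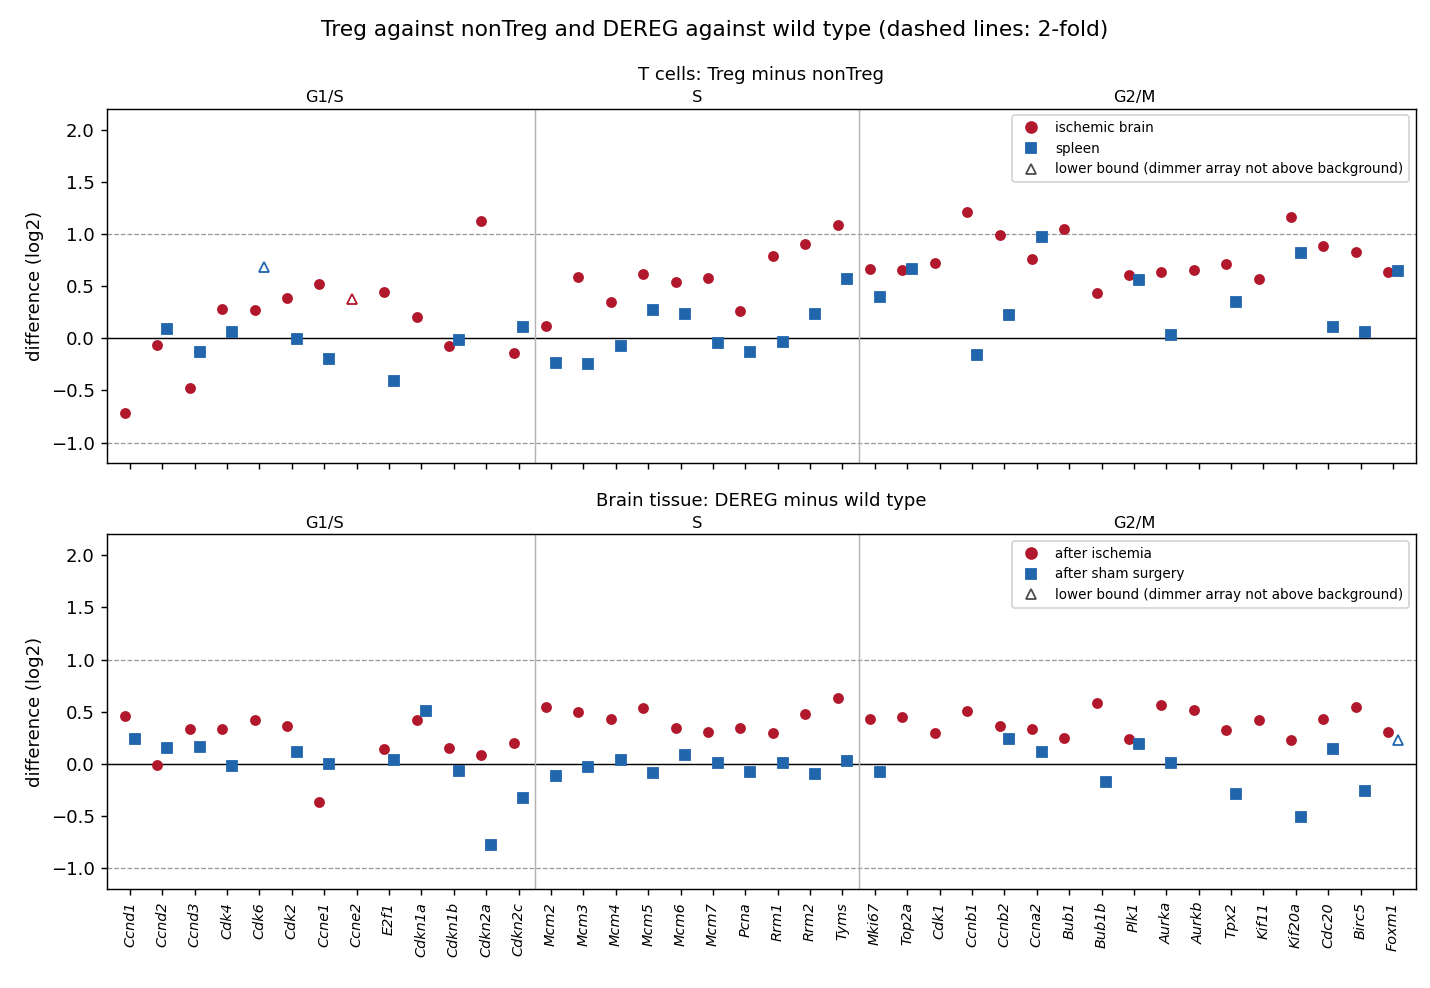
Log2 difference (y axis) of each member (x axis, grouped by phase) between Treg and nonTreg cells in ischemic brain and in spleen (upper panel), and between DEREG and WT tissue after ischemia and after sham surgery (lower panel), 1 array against 1 array, with dashed lines at 2-fold. In brain all S and G2/M members lie above 0 and 5 members pass 2-fold, and in tissue after ischemia 37 of 39 members lie above 0 with none past 2-fold.

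Brain tissue at day 14 after ischemia had much higher levels of mitotic and replication genes than sham tissue, in WT and in DEREG mice. Between WT ischemia and WT sham, 29 of 39 compared members were at least 2-fold higher and 1 was lower, where 18.8% of 16968 genes were 2-fold higher and 18.4% lower. Between DEREG ischemia and DEREG sham, 34 of 39 were higher and 1 was lower, against 22.4% and 22.1% of 17161 genes. Above 0 were 30 of 31 members measured on both WT arrays (41.2% of all genes) and 30 of 32 on both DEREG arrays (46.5%). All 17 G2/M members were at least 2-fold higher in both genotypes. In S, 6 of 10 members were higher in WT and 9 of 10 in DEREG mice, and in G1/S, 6 and 8 of 12. The medians in WT mice were 2.68 for G2/M, 1.39 for S and 1.1 for G1/S members, with -0.14 over all genes, and in DEREG mice 3.09, 2.03 and 1.52, with -0.06 over all genes. Ccne2 was not above background on any tissue array and was not compared.

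**Figure D5:**
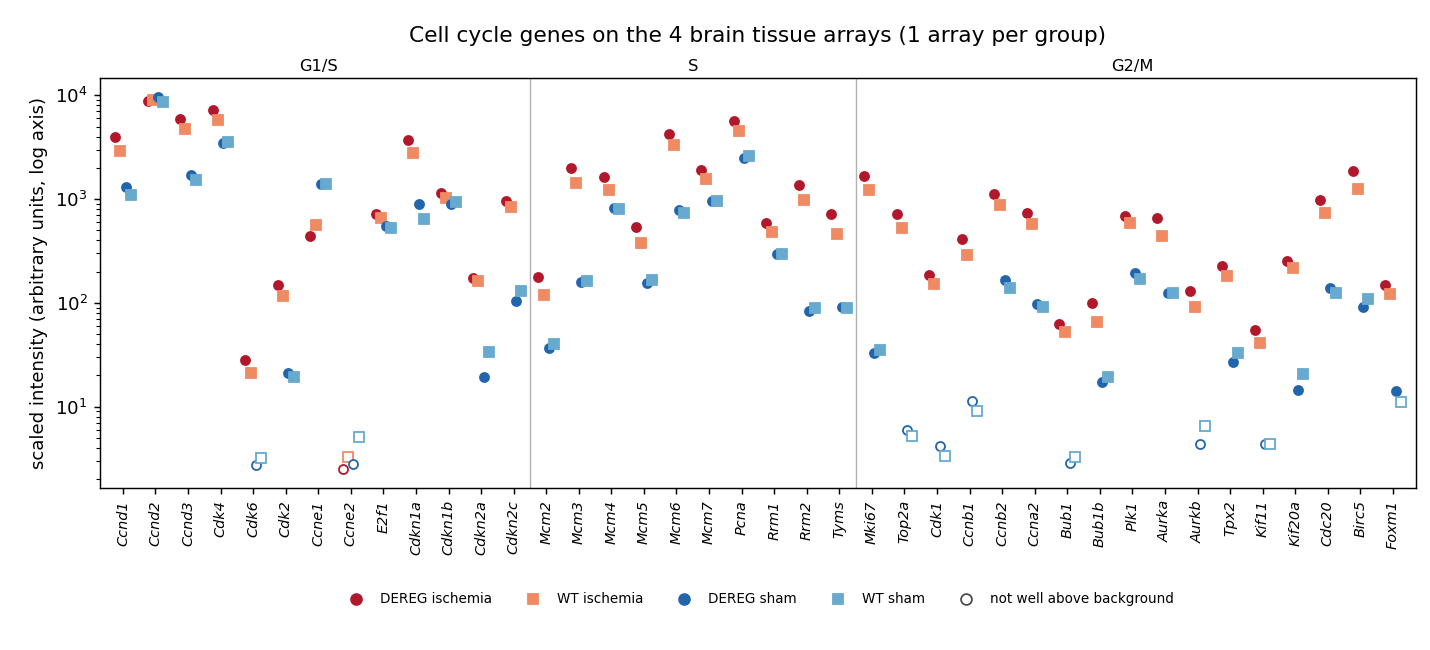
Scaled intensity (y axis, arbitrary units, log axis) of the 40 members (x axis, grouped by phase) on the 4 brain tissue arrays, 1 point per array, with open symbols for values not well above background. The ischemia points (red and orange) lie above the sham points (shades of blue) for each S and G2/M member, and below them for Ccne1.

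Mki67 read 34.9 in WT and 33.1 in DEREG mice after sham surgery, and 1237 and 1672 after ischemia, the largest measured ratio of a member: 35.4-fold in WT and 50.6-fold in DEREG mice. Top2a was not above background in either sham sample and read 525 and 718 after ischemia, at least 43.5-fold and at least 68.4-fold higher. Both sham arrays were low and both ischemia arrays high for these chromosome genes. Of the G2/M members, 7 were not above background in WT sham and 6 in DEREG sham, while all 17 were above background on both ischemia arrays. Cdk1, Ccnb1, Bub1, Aurkb and Kif11 were dim in both sham samples, as Top2a was, and Foxm1 in WT sham alone.

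Ccnb1 read 289 in WT ischemia and 411 in DEREG ischemia, at least 24-fold and at least 36.3-fold above sham. Cdk1 read 151 and 186, at least 12.6-fold and at least 17.7-fold above sham. Their partners were already detected in sham tissue: Ccnb2 read 141 in WT and 166 in DEREG mice after sham surgery, and 871 and 1119.9 after ischemia. Ccna2 was 6.42-fold higher in WT and 7.49-fold higher in DEREG mice.

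Birc5 read 109 in WT and 91.1 in DEREG mice after sham surgery, and 1265 and 1848 after ischemia, ratios of 11.6-fold and 20.3-fold. Aurkb, its partner, was at least 7.54-fold and at least 12.4-fold higher. Kif20a had the next largest measured ratio among the G2/M members in DEREG mice, 17.4-fold, and was 10.4-fold higher in WT mice. At the lower end stood Plk1, Aurka and Bub1b, at 3.48-fold, 3.57-fold and 3.4-fold in WT mice and 3.6-fold, 5.27-fold and 5.77-fold in DEREG mice, with Bub1 and Kif11 at bounds of at least 4.35-fold and at least 3.42-fold in WT mice. Tpx2 was 5.58-fold and 8.52-fold higher, Cdc20 5.84-fold and 7.1-fold, and Foxm1 at least 10-fold and 10.6-fold.

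In S phase, Rrm2 again led, with 89.7 in WT and 84.0 in DEREG mice after sham surgery, and 986 and 1371 after ischemia (11-fold and 16.3-fold). Mcm3 came next, with 163, 160.0, 1418 and 1999 in the same order (8.68-fold and 12.5-fold). The subunits of the helicase spread widely: Mcm6 was 4.56-fold, Mcm2 3.02-fold, Mcm5 2.26-fold, Mcm7 1.62-fold and Mcm4 1.52-fold higher in WT mice. Tyms was 5.16-fold higher in WT and 7.84-fold higher in DEREG mice. Pcna (1.73-fold and 2.31-fold) and Rrm1 (1.65-fold and 2.02-fold), which sham tissue already expressed at 2609 and 293 in WT mice, had smaller ratios. A second Mcm7 probe departed from the one used: it had log2 differences of 0.74 in WT and 5.49 in DEREG mice, against 0.70 and 0.99.

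The G1/S members took in the 1 gene that was lower. Ccne1 read 1410.1 in WT and 1412 in DEREG mice after sham surgery, and 564 and 438 after ischemia, a drop of 2.5-fold in WT and 3.22-fold in DEREG mice. Its kinase Cdk2 went the other way, from 19.4 and 20.9 in sham to 116 and 149.6 after ischemia (6.02-fold and 7.14-fold). E2f1 stayed within 1.32-fold of sham in both genotypes.

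Of the D-type cyclins, Ccnd1 read 1099 in WT and 1299 in DEREG mice after sham surgery, and 2921 and 4016 after ischemia. Ccnd3 read 1528, 1707, 4694 and 5936 in that order. Both were high on the 2 ischemia arrays, Ccnd1 by 2.66-fold and 3.09-fold and Ccnd3 by 3.07-fold and 3.48-fold, while Ccnd2, at 8729, 9736, 8955 and 8905, differed by at most 1.09-fold. Another Ccnd2 probe was lower after ischemia, by log2 differences of -0.53 in WT and -0.86 in DEREG mice. Cdk4 was 1.63-fold and 2.08-fold higher, with its DEREG value at 0.97 (log2), below 2-fold, under the median over probes, and Cdk6, not above background in sham tissue, at least 1.74-fold and at least 2.67-fold higher.

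The same 3 inhibitors that were higher in brain T cells were higher in ischemic tissue. Cdkn1a read 637 in WT and 903 in DEREG mice after sham surgery, and 2782 and 3732 after ischemia (4.36-fold and 4.13-fold). Cdkn2c, at 129.9 and 104 in sham, was 6.48-fold and 9.32-fold higher, and Cdkn2a 4.89-fold and 8.92-fold. Cdkn1b differed by 1.09-fold in WT and 1.26-fold in DEREG mice. Over all 8 comparisons of 2 arrays, the Cdkn1b differences lay between -0.07 and 0.34 on the log2 scale.

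In the wider list, 31 of 48 G2/M, 13 of 37 S and 8 of 20 G1/S genes were 2-fold higher in WT ischemia and 4 were lower. Over all genes, 18.8% were 2-fold higher and 18.4% lower in this comparison. In DEREG ischemia the counts were 34 of 50, 15 of 37 and 8 of 20, with 4 lower, beside 22.4% and 22.1% of all genes. Ube2c led in both genotypes (at least 38.5-fold and at least 75.8-fold), followed by Tk1, from 20.2 to 653 in WT mice (32.4-fold). The lowest was Mycn, a growth-promoting transcription factor, which went from 412 in WT sham to 85.6 in WT ischemia (4.81-fold lower). The phosphatase gene Cdc25b, which activates cyclin-dependent kinases, was 2.26-fold lower in WT and 3.61-fold lower in DEREG mice.

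Markers of several cell types also differed between ischemic and sham tissue. The summed scaled intensity of 6 neuron markers was 142974 in WT and 133384 in DEREG mice after sham surgery, and 37568 and 15795 after ischemia. The sum of 8 microglia markers was 68331, 60172, 235909 and 276646, and that of 8 macrophage and monocyte markers 9861, 12959.8, 122758 and 154303. Siglech made up most of the microglia sum in sham tissue (40368 in WT and 35610 in DEREG mice) and was lower after ischemia (33764.5 and 34676). Ly6c2 made up most of the macrophage and monocyte sum in sham tissue (7732 and 10706). In WT mice, 7 microglia markers were higher after ischemia and 1 was lower, and all 8 macrophage and monocyte markers were 2-fold higher. Neuronal signal was thus lower, and microglial and macrophage signal higher, on both ischemia arrays. The 7 pericyte and fibroblast markers summed to 8502 and 8175 in sham and 70069 and 99902 after ischemia. The 9 neural progenitor and neuroblast markers went both ways: Dcx, of neuroblasts, read 579 in WT and 575 in DEREG sham against 236 and 148 after ischemia, while Nes read 480.3 and 385 against 1162 and 1455. Which of these cells carried the cell cycle signal was not tested. With normexp correction the counts were 24 higher in WT and 29 higher in DEREG mice, beside 2293 of 16956 and 2872 of 17140 genes. The G2/M medians were 1.56 and 1.97. Mcm2, Mcm5, Bub1, Bub1b and Kif11 then fell below 2-fold in WT mice, and Cdk6, Mcm4, Rrm1, Bub1 and Kif11 in DEREG mice.

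After ischemia, DEREG tissue was slightly above WT tissue for nearly all members, with no member past 2-fold. Of 39 compared members, 37 were above 0, where 59.2% of 16172 genes were, and 0 were 2-fold higher or lower, against 2.36% and 5.37% of 16857 genes. The medians were 0.46 for S, 0.42 for G2/M and 0.27 for G1/S members, with 0.08 over all genes. The largest was Tyms, 711 in DEREG ischemia against 459 in WT ischemia (1.55-fold), followed by Bub1b (1.5-fold) and Aurka (1.48-fold). Mki67 was 1.35-fold and Top2a 1.37-fold higher. The 2 members below 0 were Ccnd2 (-0.01) and Ccne1 (-0.36). With every other scaling and correction tried, 37 of the compared members were above 0 as well. The second Mcm7 probe gave a log2 difference of 4.54, against 0.30 for the probe used. Between these arrays the neutrophil markers S100a8 (1751 in WT and 5737 in DEREG ischemia) and S100a9 (6834 and 22664) differed, while Mpo (110.4 and 94.3), Elane (99.4 and 109) and Camp (82.5 and 91.5) were close and Ngp was not above background. The T cell sum was 2666 and 6943, and the neuron sum 37568 and 15795. All 8 microglia and all 8 macrophage and monocyte markers were higher in DEREG ischemia. So were 7 of 8 CD8 T and NK cell and 6 of 7 pericyte and fibroblast markers, while 7 of 9 erythroid markers were lower. The part of these cells in the offset was not tested. Of the other cell cycle genes measured on both arrays, 45 of 48 G2/M, 33 of 37 S and 18 of 20 G1/S genes were above 0. Kif2c, a kinesin that takes microtubules apart, was past 2-fold upward (1.09) and Mycn past 2-fold downward (-1.16).

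Sham tissue showed no such offset. Of 32 compared members, 0 were 2-fold higher or lower in DEREG sham, against 0.59% and 0.449% of 16273 genes, and of the 31 measured on both arrays 17 were above and 14 below 0, where 47.2% of genes were above 0. The medians were 0.04 for G1/S, -0.01 for S and 0.01 for G2/M members. The largest differences were those of Cdkn2a (19.5 in DEREG against 33.4 in WT sham, log2 -0.78), Kif20a (-0.51) and Cdkn1a (0.50), the first 2 of them dim probes. The effect of ischemia was larger in DEREG than in WT mice for 28 of the 31 members above background on all 4 arrays, where 55.9% of 15120 genes were above 0, with medians of 0.54 for G2/M, 0.47 for S and 0.21 for G1/S members. None of the 31 passed 2-fold, against 0.906% of genes higher and 5.21% lower. Cdkn2a had the largest such value (0.87) and Ccne1 the lowest (-0.37). These values use the same 4 arrays as the comparisons above and add no independent sample.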

How the data were processed

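RNA was hybridised to 8 one-colour (Cy3) Agilent arrays, 1 per group, on 1 slide with 1 scan time, per the file headers, so no batch could be split. RNA was extracted with QIAzol from tissue and TRIzol LS from T cells, per the labels' protocols. The submitters' processing notes name Agilent Feature Extraction, version 10.7.1.1, as the image software. Per the file headers, the deposited processed intensity of a spot is linear and background-subtracted, without scaling from array to array, and a flag marks spots well above background. The authors' deposited table of the series holds a signal that equals this intensity over a constant per array, close to its 75th percentile, and served as an alternative.

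Spots of a probe were averaged, log2-transformed and scaled to the array's 75th percentile. For T cells the percentile was taken over probes above background on all 4 arrays, and for tissue over all probes. The 2 sets were scaled separately and no level is compared across them. Of 56605 probes, 32994 matched 1 symbol through their accession in a RefSeq table of assembly GRCm38.p6, none matched several and 23611 stayed unnamed. The brightest probe on average stood for a gene, and 16 of the 40 members had several probes. Of 111 values from further probes, 6 lay over 2-fold from the probe used. Genes above background on neither array were not compared. The median SD between spots of a probe was 0.039 to 0.042 (log2), which gives a technical SD of 0.057 for a difference and covers no biological spread. No spot was saturated. The number of arrays, 1 per group, limits the precision.

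Members, lists and limits were chosen with earlier results of these data known. All 40 members could be named, with the 3 highest and 3 lowest other cell cycle genes past 2-fold per comparison and the most informative markers. The pipeline was tested on simulated data. As alternatives the background was corrected with normexp (offset 50), arrays were quantile-normalized, or the percentile was taken with the probe sets of T cells and tissue exchanged. Dim probes were left unfiltered, genes were limited to those above background on every array, probes of a gene were summarised by their median, and the deposited table was used. The scanner files used here hold no mean spot signal, so normexp was run on the median signal, with R 4.3.3 and limma 3.58.1. Other steps used Python 3.11.15 with numpy 2.4.6, pandas 2.3.3 and matplotlib 3.10.9.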

Additional observations from a re-analysis of the deposited data

Results flagged for a closer look

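On its brightest probe, Ccnb1 went opposite ways in the 2 Treg against nonTreg comparisons. In ischemic brain its log2 difference was 1.21 (937 in Treg against 406 in nonTreg cells), and in spleen it was -0.16 (47.5 against 53.3). With the median over its 3 probes the values were 0.92 and 3.39, so that both were above 0, and the other 2 probes were not above background in spleen nonTreg cells. Each value is 1 array against 1 array, and the difference between them was not tested.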

How the results depend on the processing

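No paired analysis was possible because each group has 1 sample, and for the same reason no replicate could be left out. Over 7 alternatives, 128 of 140 counts of members past 2-fold stayed within 1.5 times the reported count and 12 did not. Many of the reported counts were 0, where the 1.5 limit has no meaning and only another 0 was taken as the same. For the brain effect and the stroke effect, the limit to genes above background on every array repeats the main setting. The share that stayed was thus partly fixed in advance. With normexp, members 2-fold higher in brain Treg than in brain nonTreg cells were 2 in place of 5, beside 174 of 13637 genes. Without a filter on dim probes, spleen Treg against spleen nonTreg cells gave 3 higher and 1 lower in place of 0 and 0. Over all 22911 genes, 1309 were then higher and 1152 lower. The brain effect in Treg minus nonTreg cells without the filter gave 4 higher and 2 lower in place of 1 and 0, beside 2017 and 1733 genes. The stroke effect in DEREG minus WT mice gave 1 higher in place of 0, beside 1083 genes. With the median over probes, spleen Treg against spleen nonTreg cells, DEREG against WT ischemia, DEREG against WT sham and the stroke effect each gave 1 higher in place of 0. Over all genes, 639 of 12333, 401 of 16754, 103 of 16175 and 181 of 15135 were higher in that order. The brain effect then gave 0 higher and 1 lower, because the Ccnb1 value turned from 1.37 to -2.47. Over all 11322 compared genes, 326 were higher and 481 lower. The single gains were Ccnb1 in spleen, Mcm7 in DEREG ischemia and in the stroke effect, and Cdkn1a in sham.

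Of 132 member differences at or over 2-fold, 22 fell below 2-fold with normexp, 1 with quantile normalization, 2 with the median over probes and 1 with the deposited table, and 1 changed sign (Ccnb1, above). None did so when the percentile came from the other set of probes. The lost values included Bub1 in WT ischemia (2.12 to 0.62) and Cdk6 in brain nonTreg cells (1.84 to 0.23). Over all genes normexp also lowered the counts. In brain Treg against spleen Treg cells, genes 2-fold higher went from 2372 of 13779 to 1253 of 13185, and members from 32 to 29. Dim signals limit these data: bounds depend on the background level assumed, and 10 members were not above background in at least 1 spleen group. The cause of the other changes was not tested.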
